A study of Mus musculus with 9 samples.

Results

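The 10 dendritic cell genes described here are Siglech, Flt3, Xcr1, Clec9a, Cd209a, Zbtb46, Batf3, Ccr9, Tcf4 and Irf8, chosen by symbol for their known use by conventional and plasmacytoid dendritic cells and found among the 20926 genes of the expression table. RNA of blood was sequenced from 9 male DBA/1 mice, a strain prone to arthritis, whose labels give an age of 7 weeks, that at which the mice were allotted to groups. The 3 Ctrl mice were not irradiated, and whether they were given adjuvant alone is not described in the methods. Arthritis in the 3 CIA mice was collagen-induced, a model of rheumatoid arthritis set off by injecting chick type II collagen in Freund's adjuvant at the base of the tail, and these mice were not irradiated. The 3 CIA+THz mice carried arthritis of the same kind and received 0.1 THz radiation on the swollen ankle for 30 min per day over 14 days, under isoflurane, while anaesthesia of the other groups is not described in the sources used here. The libraries of a group are labelled as separate samples, so that the p-values measure the spread between these samples.

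Dendritic cells take up antigen in tissues and blood and present it to T cells. Conventional dendritic cells fall into a cDC1 and a cDC2 lineage. The cDC1 lineage depends on Batf3 and Irf8, carries the receptors Clec9a and Xcr1 and cross-presents antigen to CD8 T cells. The cDC2 lineage in the mouse includes cells bearing Cd209a and primes CD4 T cells. Plasmacytoid dendritic cells depend on Tcf4, carry Siglech and Ccr9 and release type I interferon. All of them grow from bone marrow progenitors under the growth factor Flt3 ligand, and both kinds are rare in blood.

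The labels call the tissue blood leukocyte, while the extraction is described as total blood RNA. Ptprc (CD45), carried by all leukocytes, was measured in each library at between 66.8 and 149.7 rescaled FPKM, and Alas2, a gene of red cell precursors, made up 14.4% to 16.7% of all FPKM in the 6 Ctrl and CIA libraries and 11.4%, 12.4% and 14.0% in the 3 CIA+THz libraries, below all others. Ptprc was 70.8, 66.8 and 140.8 in CIA and 138.5, 136.2 and 142.9 in CIA+THz, called higher there (log2 fold change 0.67, unadjusted p = 0.0453 by limma) with overlapping groups. The part of these differences in the CIA+THz values below was not tested. FPKM counts fragments relative to the length of the transcript and to the total of the library. The deposited values were divided by 1 factor per library, between 0.847 and 1.24, so that the typical gene was level across libraries, and the values below are such rescaled FPKM. The table holds no counts, so that the depth behind each value is not known from it, and values under about 1 may rest on few fragments. In bulk RNA of this kind, fewer cells of a type and less RNA per cell cannot be told apart.

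Of the 10 genes, 9 had a mean of 0.1 rescaled FPKM or more, the filter used, and were tested with limma together with the other genes of the table, 12366 in all. Changes are given on the scale of log2(rescaled FPKM + 0.1). For a gene near 0 the change depends on the 0.1 added. It can come out smaller or larger than the log2 ratio of group means. A gene was called at an unadjusted p under 0.05 with an absolute log2 fold change above 0.67, the criterion of the study. In CIA against Ctrl 3 of the 9 genes were called, Flt3 higher and Ccr9 and Xcr1 lower, where 9.04% of all genes tested were called, 4.79% higher and 4.25% lower. In CIA+THz against Ctrl 2 of the 9 were called, Xcr1 and Ccr9, both lower, against 7.88% of all genes called and 3.24% called lower. From CIA to CIA+THz limma called 0 of the 9, and 0 had an unadjusted p under 0.05, where 4.54% of all genes were called. After Benjamini-Hochberg adjustment over all 12366 genes, limma left 0 of the 9 genes under 0.05 in any of the 3 comparisons, where 0.154% of all genes passed in CIA against Ctrl, 0.105% for CIA+THz against Ctrl and 0.00% for CIA+THz against CIA. Both comparisons with Ctrl use the same 3 Ctrl libraries.

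**Figure D1:**
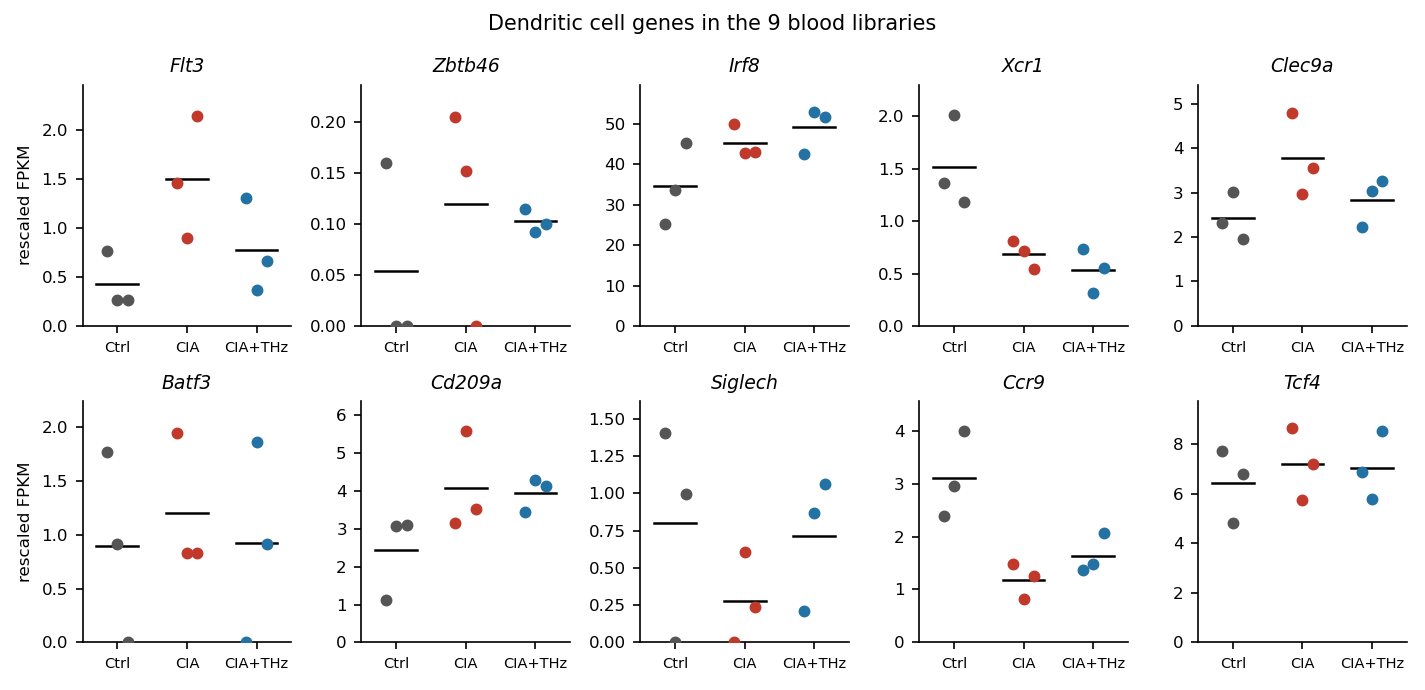
Rescaled FPKM (y axis, linear from 0) of the 10 genes in each of the 9 libraries (points, libraries 1 to 3 from left to right) by group, with the group mean as a bar. The Ctrl points of Xcr1 and Ccr9 lie above all points of the CIA and CIA+THz groups, and the CIA points of Flt3 lie above all Ctrl points.

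The promoters of the 3 genes called, and of Clec9a as the cDC1 partner of Xcr1, are shown because 1 of the 3 was called higher and 2 were called lower, while Clec9a was not called. Windows from 250 bases before to 50 bases after the RefSeq (GRCm38.p6) transcription start were used for 9 of the 10 genes. The windows are those of Xcr1 at chr9:123861980-123862279 (minus strand), Ccr9 at chr9:123766961-123767260 (plus strand), Flt3 at chr5:147400440-147400739 (minus strand) and Clec9a at chr6:129408612-129408911 (plus strand). Each is written 5′ to 3′ on the strand of its gene, with capitals for matches to CANNTG, the E-box letters that basic helix-loop-helix factors such as the Tcf4 protein recognise.
Xcr1 promoter: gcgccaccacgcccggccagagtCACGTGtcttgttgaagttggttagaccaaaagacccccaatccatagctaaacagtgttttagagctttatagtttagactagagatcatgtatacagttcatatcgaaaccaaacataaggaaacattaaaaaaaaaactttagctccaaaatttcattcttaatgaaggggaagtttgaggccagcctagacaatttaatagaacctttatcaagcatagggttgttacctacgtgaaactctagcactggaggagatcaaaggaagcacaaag
Ccr9 promoter: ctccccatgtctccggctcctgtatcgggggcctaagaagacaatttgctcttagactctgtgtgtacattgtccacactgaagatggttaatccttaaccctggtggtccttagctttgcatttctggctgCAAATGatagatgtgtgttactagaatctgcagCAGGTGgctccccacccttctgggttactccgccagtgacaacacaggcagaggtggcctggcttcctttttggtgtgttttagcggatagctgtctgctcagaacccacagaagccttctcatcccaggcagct
Flt3 promoter: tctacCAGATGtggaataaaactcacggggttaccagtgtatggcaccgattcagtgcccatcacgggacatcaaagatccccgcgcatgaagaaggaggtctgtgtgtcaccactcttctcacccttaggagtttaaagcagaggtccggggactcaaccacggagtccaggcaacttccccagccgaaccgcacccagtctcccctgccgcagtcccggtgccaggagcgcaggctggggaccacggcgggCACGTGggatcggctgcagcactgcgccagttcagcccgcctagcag
Clec9a promoter: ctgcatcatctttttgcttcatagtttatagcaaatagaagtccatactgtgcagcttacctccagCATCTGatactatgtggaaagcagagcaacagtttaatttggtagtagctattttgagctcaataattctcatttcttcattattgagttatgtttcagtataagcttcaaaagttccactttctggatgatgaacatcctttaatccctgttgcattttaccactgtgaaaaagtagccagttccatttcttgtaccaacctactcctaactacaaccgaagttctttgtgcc

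CANNTG reads the same on both strands. It occurs 2 times in the Ccr9 window, 2 times in the Flt3 window and 1 time each in the Xcr1 and Clec9a windows, and 72.3% of the 32841 RefSeq promoter windows of this length hold it at least 1 time, as do these 4. The letters TGANTCA, to which AP-1 factors such as Batf3 bind, were sought on both strands and are in none of the 4 windows, as in most windows (7.81% hold them). These are letter matches in short windows and describe no binding.

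Among the genes of growth and lineage, Flt3, the receptor for the growth factor that sustains dendritic cells and their progenitors (chr5:147330741-147400489, GRCm38, minus strand), was higher in CIA. Its rescaled FPKM was 0.767, 0.260 and 0.262 in Ctrl libraries 1, 2 and 3, 1.46, 0.893 and 2.15 in CIA, and 1.31, 0.364 and 0.659 in CIA+THz. All 3 CIA libraries lay above all 3 Ctrl libraries, and the CIA+THz libraries overlapped both groups. Flt3 rose in CIA against Ctrl by a log2 fold change of 1.65 (SE 0.54, unadjusted p = 0.0176, adjusted p = 0.200 by limma with Benjamini-Hochberg adjustment, 95% interval 0.38 to 2.91). Leaving out Ctrl library 2, Ctrl library 3 or CIA library 3 took its p to between 0.0553 and 0.0665. Between CIA+THz and CIA the log2 difference was -0.94 (95% interval -2.16 to 0.29, unadjusted p = 0.113 by limma). Early myeloid progenitors also express Flt3, and a list of 6 genes of such cells, Cd34, Mpo, Elane, Prtn3, Ms4a3 and Ctsg, summed to between 0.5 and 1.4 rescaled FPKM in Ctrl, 1.6 and 5.7 in CIA and 1.1 and 3.9 in CIA+THz. In CIA against Ctrl their median log2 difference was 1.39, with 5 of 6 positive. Of these 6 genes limma called 0 in that comparison, 0 had an unadjusted p under 0.05, and their part in the Flt3 values was not tested.

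Irf8, the transcription factor of the cDC1 and plasmacytoid lineages that monocytes and B cells use as well (chr8:120736358-120756694, plus strand), was the most abundant of the 10 genes. It was measured at 25.2, 33.6 and 45.4 rescaled FPKM in Ctrl, 49.96, 42.8 and 43.0 in CIA, and 42.6, 53.0 and 51.8 in CIA+THz. Ctrl library 3 lay within the range of the other groups, so that the groups overlapped. The log2 fold change was 0.42 in CIA against Ctrl (SE 0.21, unadjusted p = 0.0893) and 0.53 in CIA+THz against Ctrl (SE 0.21, unadjusted p = 0.0385, adjusted p = 0.248, limma with Benjamini-Hochberg adjustment), below the fold criterion. With the FPKM as deposited this last value was 0.84 (unadjusted p = 0.0103 by limma) and passed it.

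Zbtb46, a transcription factor that marks conventional dendritic cells and their committed precursors (chr2:181387762-181459426, minus strand), was near the floor of the table. It was listed at 0.160, 0 and 0 in Ctrl, 0.205, 0.152 and 0 in CIA, and 0.114, 0.0923 and 0.100 in CIA+THz. All 3 CIA+THz libraries gave a value above 0, while 2 of 3 Ctrl libraries and 1 of 3 CIA libraries did not. Over the whole table, between 12449 and 12807 genes were above 0 in each CIA+THz library. In the Ctrl and CIA libraries between 11801 and 12264 genes were. The gene fell under the filter and was not tested.

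Among the cDC1 genes, Xcr1 fell in CIA, and Clec9a and Batf3 were not called. Xcr1 is the chemokine receptor by which cDC1 find XCL1 from CD8 T cells and natural killer cells (chr9:123852315-123862029, minus strand). Its rescaled FPKM was 1.37, 2.01 and 1.18 in Ctrl, 0.806, 0.711 and 0.543 in CIA, and 0.730, 0.310 and 0.550 in CIA+THz. Every library of both arthritic groups lay below every Ctrl library, and the CIA and CIA+THz libraries overlapped.

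Xcr1 fell by 1.02 on the log2 scale in CIA against Ctrl (SE 0.38, unadjusted p = 0.0302, adjusted p = 0.238 by limma with Benjamini-Hochberg adjustment). It fell by 1.39 in CIA+THz against Ctrl (SE 0.41, unadjusted p = 0.0109, adjusted p = 0.162, same test). The difference in CIA+THz against CIA was -0.36 (95% interval -1.31 to 0.58, unadjusted p = 0.388 by limma). The call in CIA against Ctrl was lost without Ctrl library 2, CIA library 2 or CIA library 3 (p between 0.0530 and 0.0849), and with a pseudocount of 1, where the change was -0.57. The call in CIA+THz against Ctrl was kept with any 1 of its 6 libraries left out.

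Clec9a, the receptor by which cDC1 sense the actin of dead cells (chr6:129408862-129424763, plus strand), stood at 2.33, 3.01 and 1.96 rescaled FPKM in Ctrl, 4.80, 2.97 and 3.56 in CIA, and 2.22, 3.04 and 3.27 in CIA+THz. Of the 3 CIA libraries, 2 lay above all Ctrl libraries. The log2 fold change was 0.61 in CIA against Ctrl (95% interval -0.09 to 1.30, unadjusted p = 0.0772) and -0.39 in CIA+THz against CIA (95% interval -1.01 to 0.23, unadjusted p = 0.181, both by limma). Clec9a overlaps Clec1b, a receptor gene of platelets on the same strand, over 5.6% of its exon bases, and Clec1b was measured at between 105.8 and 231.7 rescaled FPKM. The share of fragments that the authors' quantification placed between the pair is not known. Clec1b itself gave a log2 fold change of -0.19 in CIA against Ctrl (unadjusted p = 0.440 by limma).

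Batf3, the factor required for cDC1 to form (chr1:191097847-191108945, plus strand), was listed at 1.77, 0.911 and 0 in Ctrl, 1.94, 0.827 and 0.832 in CIA, and 0, 1.86 and 0.912 in CIA+THz. The 3 groups span nearly the same range, with a 0 in 1 Ctrl and 1 CIA+THz library. The 95% interval of the log2 difference in CIA against Ctrl ran from -1.42 to 3.57, and in CIA+THz against CIA from -3.61 to 1.51, so that differences of several fold in either direction lie within them.

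Because Xcr1 and Clec9a are used by the same cells, their ratio within a library was taken from the FPKM as deposited, where any scaling of the library drops out. This ratio was chosen after the values were seen. Over the 9 libraries the log2 values of Xcr1 and Clec9a had a Pearson r of -0.32, so that the pair did not rise and fall together. The unknown share of fragments placed between Clec9a and Clec1b also enters the ratio. Xcr1/Clec9a was 0.588, 0.667 and 0.604 in Ctrl, 0.168, 0.239 and 0.152 in CIA, and 0.328, 0.102 and 0.168 in CIA+THz. The Ctrl ratios lay close together and above those of all 6 arthritic libraries. On the log2 scale the Ctrl ratio averaged -0.69 ± 0.10 (SD, n = 3), against -2.45 ± 0.34 for CIA and -2.49 ± 0.85 for CIA+THz. The difference was -1.76 in CIA against Ctrl and -1.80 for CIA+THz against Ctrl, and a two-sided exact permutation test gave p = 0.1 for each, the smallest that 3 against 3 libraries allow. Between CIA+THz and CIA the difference was -0.04 (exact permutation p = 1), and it was 0.024 with 0.1 added to each value.

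**Figure D2:**
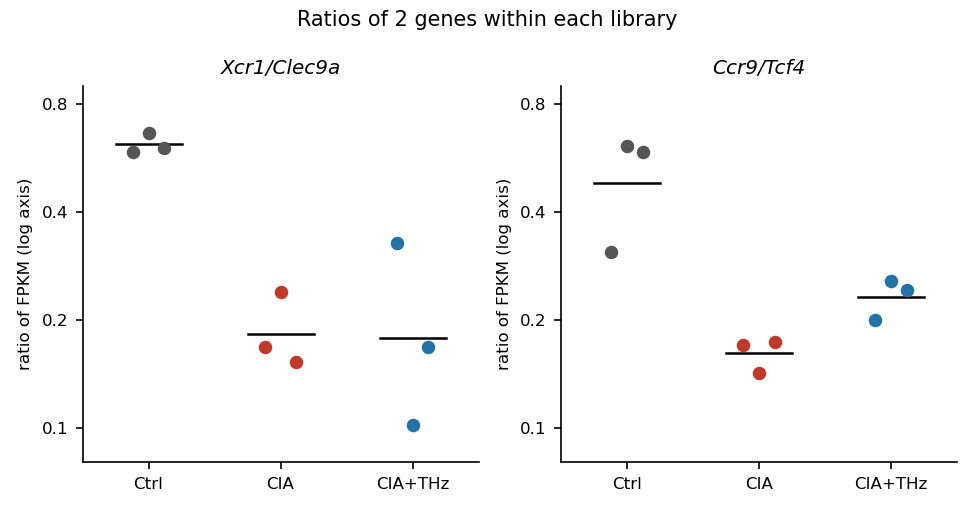
Ratio of the deposited FPKM of Xcr1 to Clec9a and of Ccr9 to Tcf4 in each library (y axes, log scale, points) by group, with the geometric mean as a bar. The Ctrl ratios lie above all CIA and CIA+THz ratios in both panels, and the CIA+THz points of Ccr9/Tcf4, from 0.200 to 0.256, lie between the Ctrl and CIA points.

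For the cDC2 lineage the list holds Cd209a, a lectin receptor also found on monocyte-derived dendritic cells (chr8:3743397-3748984, minus strand). Its rescaled FPKM was 1.13, 3.08 and 3.10 in Ctrl, 3.15, 5.57 and 3.53 in CIA, and 3.44, 4.29 and 4.13 in CIA+THz. All 6 arthritic libraries lay above all 3 Ctrl libraries, by a small margin over Ctrl libraries 2 and 3. The log2 fold change was 0.81 in CIA against Ctrl (SE 0.45, unadjusted p = 0.114) and 0.80 in CIA+THz against Ctrl (SE 0.40, unadjusted p = 0.0836, both by limma), so that neither was called. Between CIA+THz and CIA the log2 difference was -0.01 (95% interval -0.62 to 0.60), and 0.26 with the FPKM as deposited. Counting Cd209a, the groups did not overlap for 4 of the 9 genes in CIA against Ctrl, where 23.5% of all genes tested did not overlap. They did not overlap for 3 of the 9 between CIA+THz and Ctrl (24.0% of all genes) and for 0 of the 9 between CIA+THz and CIA (19.6% of all genes).

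Monocytes and cells derived from them can express Irf8 and Cd209a, and monocyte genes rose in CIA, as Flt3 did. Of a list of 14 monocyte genes limma called 8 higher and 0 lower in CIA against Ctrl (median log2 fold change 0.81), and 8 higher and 0 lower for CIA+THz against Ctrl (median 0.73). Of all genes tested 4.79% were called higher in CIA against Ctrl, and 7.88% were called for CIA+THz against Ctrl. This list and the T cell, plasma cell and B cell lists below were chosen with earlier results of these data known. The summed level of the 14 monocyte genes was between 3206 and 3526 rescaled FPKM in Ctrl, 5438 and 6055 in CIA and 3699 and 3998 in CIA+THz. All 14 were above the filter. Lyz2 alone made up 76.6% to 81.6% of this sum, so that the sum says little of the other 13 genes. The part of these cells in the values of Flt3, Irf8 and Cd209a was not tested.

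Among the plasmacytoid genes, Ccr9 fell in both arthritic groups. Ccr9 is the chemokine receptor that draws plasmacytoid cells and some T cells to the gut (chr9:123678439-123784330, plus strand). It was measured at 2.39, 2.96 and 3.99 rescaled FPKM in Ctrl, 1.48, 0.815 and 1.25 in CIA, and 1.38, 1.48 and 2.07 in CIA+THz. All 6 arthritic libraries lay below all Ctrl libraries, and 2 of the 3 CIA+THz libraries reached or passed the highest CIA library.

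Ccr9 fell by 1.33 on the log2 scale in CIA against Ctrl (SE 0.35, unadjusted p = 0.00683, adjusted p = 0.150 by limma with Benjamini-Hochberg adjustment). It remained called there with any 1 of the 6 libraries left out, with a log2 change between -1.50 and -1.10. It fell by 0.87 in CIA+THz against Ctrl (SE 0.30, unadjusted p = 0.0208, adjusted p = 0.200, same test). That call was lost without Ctrl library 3, CIA+THz library 1 or CIA+THz library 2 (p between 0.0635 and 0.0718), and the change was -0.58 with the FPKM as deposited and -0.63 with a pseudocount of 1, both below the criterion. Between CIA+THz and CIA the log2 difference was 0.46 (95% interval -0.32 to 1.23, unadjusted p = 0.206 by limma).

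Several other genes overlap the annotated span of Ccr9, and whether the counting used strand is not stated. Of the Ccr9 exon bases, 18.8% are shared with AC165425.1 on the other strand and 2.6% with Gm17200 on the same strand. Slc6a20a, on the other strand, shares 0.2%. The share of fragments that the authors' quantification placed between these genes and Ccr9 is not known. The span also holds Lztfl1 on the other strand. Lztfl1 shares no exon bases with Ccr9 and was measured at no more than 2.22 rescaled FPKM, with a log2 difference of -0.66 in CIA against Ctrl (unadjusted p = 0.154 by limma). T cells and antibody-forming plasma cells can carry Ccr9 too. A list of 10 T cell genes, all above the filter, had 0 called higher and 1 called lower in CIA against Ctrl. Their sum ran from 356.8 to 403.0 rescaled FPKM in Ctrl, from 283.6 to 324.6 in CIA and from 355.8 to 486.3 in CIA+THz. Of 6 plasma cell genes 4 were called lower in CIA against Ctrl, where 4.25% of all genes tested were called lower. The plasma cell sum was between 108.4 and 132.6 in Ctrl, 50.5 and 59.0 in CIA and 46.4 and 51.7 in CIA+THz. Xbp1 made up 22.8% to 77.3% of it. From CIA to CIA+THz the median of the plasma cell list was 0.51, with 4 of 6 genes positive and Jchain called higher (log2 fold change 0.81, unadjusted p = 0.0272 by limma), and the median of the T cell list was 0.41, with all 10 positive and 1 called higher. Of all genes tested 4.54% were called from CIA to CIA+THz. The part of either cell type in the Ccr9 values was not tested.

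Siglech, a lectin used as a surface marker of plasmacytoid cells (chr7:55768178-55778925, plus strand), was low and scattered. It was listed at 1.40, 0 and 0.996 in Ctrl, 0, 0.608 and 0.235 in CIA, and 0.213, 0.869 and 1.06 in CIA+THz. The groups overlapped in each comparison, with a 0 in 1 Ctrl and 1 CIA library. The 95% intervals of the log2 difference were wide, -3.72 to 1.86 in CIA against Ctrl and -0.72 to 3.31 in CIA+THz against CIA, and in CIA+THz against Ctrl the sign turned with the pseudocount, 0.37 at 0.1 and -0.012 at 1.

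Tcf4, the transcription factor that sets and maintains the plasmacytoid fate and is also used by B cells, was the steadiest of the 10. Its rescaled FPKM was 7.71, 4.82 and 6.78 in Ctrl, 8.66, 5.74 and 7.21 in CIA, and 6.87, 5.77 and 8.51 in CIA+THz. The log2 difference was 0.17 in CIA against Ctrl (95% interval -0.42 to 0.76) and -0.03 in CIA+THz against CIA (95% interval -0.54 to 0.49), and the latter was 0.25 with the FPKM as deposited. A list of 10 B cell genes summed to between 483.3 and 575.1 rescaled FPKM in Ctrl, 530.8 and 675.8 in CIA and 626.0 and 815.1 in CIA+THz. Of these 10 genes, 1 was called in CIA against Ctrl (9.04% of all genes tested) and 3 in CIA+THz against Ctrl (7.88%), all higher. The part of B cells in the Tcf4 and Irf8 values was not tested.

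The ratio of Ccr9 to Tcf4 within a library, also chosen after the values were seen, was 0.310, 0.613 and 0.588 in Ctrl, 0.171, 0.142 and 0.174 in CIA, and 0.200, 0.256 and 0.243 in CIA+THz. The 3 groups did not overlap, with CIA+THz between Ctrl and CIA. On the log2 scale the Ctrl ratio averaged -1.05 ± 0.55 (SD, n = 3), that of CIA -2.63 ± 0.16 and that of CIA+THz -2.11 ± 0.19. The difference was -1.58 in CIA against Ctrl, -1.05 for CIA+THz against Ctrl and 0.52 for CIA+THz against CIA, each with an exact permutation p = 0.1, the smallest possible, over 6 such tests of the 2 ratios. None of the 6 can pass 0.05 in this design.

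**Figure D3:**
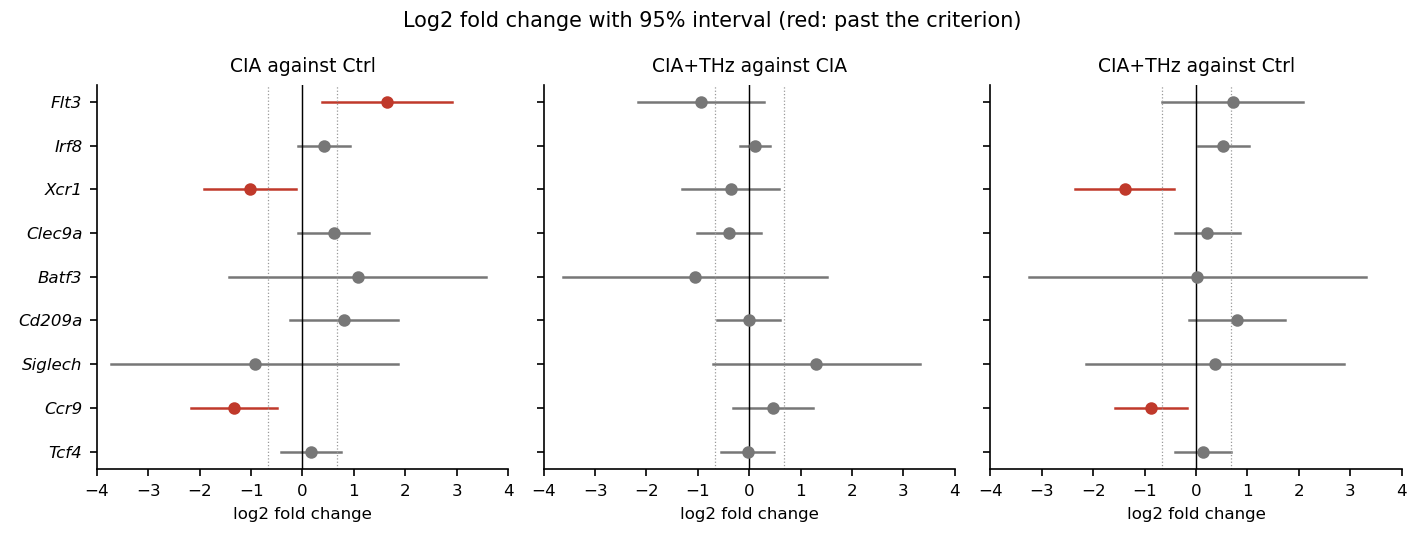
Log2 fold change of the 9 genes tested (points) with the 95% interval from limma (lines) in each of 3 comparisons, with dotted lines at -0.67 and 0.67. Points in red passed the criterion: Flt3, Xcr1 and Ccr9 in CIA against Ctrl, and Xcr1 and Ccr9 in CIA+THz against Ctrl.

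Across the 3 groups at the same time, limma's moderated F-test gave an unadjusted p under 0.05 for 4 of the 9 genes, Ccr9 (unadjusted p = 0.00702), Xcr1 (unadjusted p = 0.0183), Flt3 (unadjusted p = 0.0406) and Irf8 (unadjusted p = 0.0417), where 21.3% of all genes tested had one. An adjusted p under 0.05 was reached by 0 of the 9 and by 2.53% of all genes. Per length of transcript, Irf8 stood above the other 9 genes in every library, with no value shared with any of them. Tcf4 followed with 4.82 to 8.66 rescaled FPKM over the 9 libraries, and its lowest values met the highest of Cd209a, which ran from 1.13 to 5.57. Clec9a, from 1.96 to 4.80, and Ccr9, from 0.815 to 3.99, did not stand apart from Cd209a or from each other. Batf3, Xcr1, Flt3 and Siglech overlapped throughout, and Zbtb46 was lowest with 0 to 0.205.

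Over the 9 libraries the 10 genes did not vary as a unit. The pairs with the highest Pearson correlation of log2 values among the 9 tested genes were Cd209a with Irf8 (r = 0.80), Clec9a with Batf3 (r = 0.69) and Xcr1 with Ccr9 (r = 0.62). The lowest were Xcr1 with Irf8 (r = -0.72) and Flt3 with Ccr9 (r = -0.68). These values describe 9 libraries that share their groups, so that differences between the groups enter each of them. Among 9742 genes averaging 1 rescaled FPKM or more, the genes most like Clec9a over the 9 libraries were Mrps14, BC005624 and Rpl4 (r = 0.97, 0.96 and 0.96). Those most like Cd209a were St3gal3, Selenoh and Cxxc1 (r = 0.98, 0.97 and 0.97), and those most like Siglech were Zbtb26, Ppwd1 and Leo1 (r = 0.95, 0.91 and 0.91). No gene of the other dendritic cell lists is among these 9. Each was picked for the size of its r among 9742 genes over only 9 libraries, so that these r are a description and no test.

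Xcr1 and Ccr9, the 2 genes called lower, are neighbours in a cluster of chemokine receptor genes on chromosome 9, with their starts 94.8 kb apart. For Ccr9 this start is that of its RefSeq promoter window, which lies inside its longer GENCODE span. Of 12 genes of the table that start within 300 kb of the Xcr1 start, 9 were tested and 4 were called in CIA against Ctrl, where 9.04% of all genes were called. The window was drawn around 2 of these 4, so that the count is no measure of the region. Besides Xcr1 and Ccr9 these were Cxcr6, a receptor of activated T cells and natural killer cells, and Ccr2, the receptor of classical monocytes, and both were higher. Cxcr6 lies between the pair and rose by a log2 fold change of 1.05 (SE 0.42, unadjusted p = 0.0402 by limma), and Ccr2 rose by 0.92 (SE 0.23, unadjusted p = 0.00546). Ccr1 gave -0.50 (unadjusted p = 0.00418), below the fold criterion, and Fyco1, whose start is 10.1 kb from that of Xcr1, gave -0.25 (unadjusted p = 0.155). The genes around Xcr1 and Ccr9 thus went both ways in CIA.

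**Figure D4:**
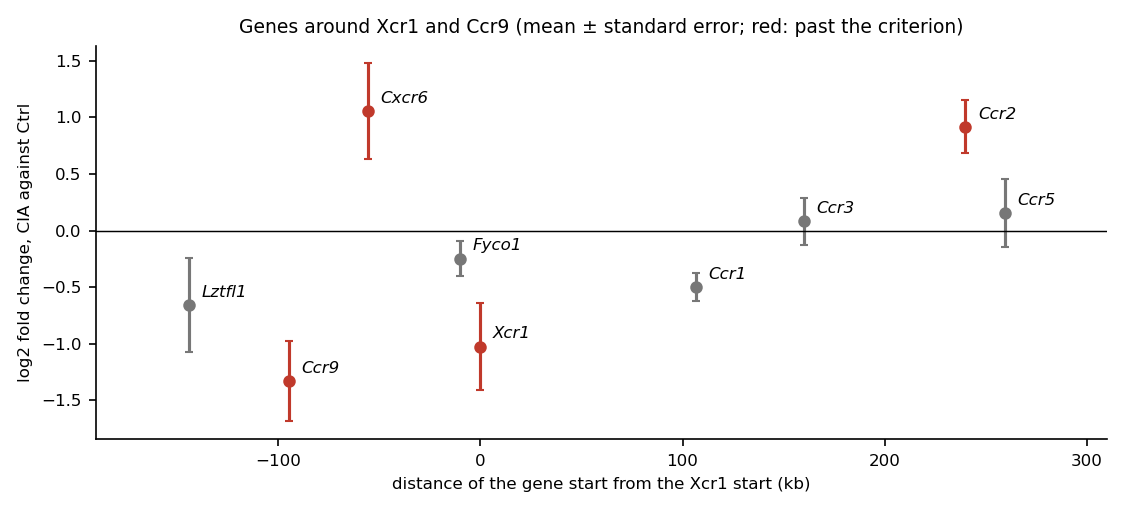
Log2 fold change in CIA against Ctrl (y axis, points with standard errors) of the 9 tested genes near Xcr1, by the distance of their start from the Xcr1 start (x axis, kb). Ccr9 and Xcr1 were called lower and Cxcr6 and Ccr2 higher (red).

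Other genes of the same cell types were followed in 5 lists, written like the 10 genes from known roles. Like those genes, the lists were chosen with earlier results of these data known. Their shares called are thus a description and no test. The lists hold 62 genes, of which 58 were tested. In CIA against Ctrl 10 of the 58 were called (17.2%, against 9.04% of all genes tested), 9 of them higher (4.79% of all genes were called higher). Of 16 plasmacytoid genes 15 were tested, and 3 were called, all higher. Of the 15 log2 differences 10 were positive and 5 negative. Klra17 fell by 0.664 (unadjusted p = 0.0056 by limma), just below the fold criterion, with all 3 CIA libraries below all 3 Ctrl libraries. Spib rose by 0.44 (unadjusted p = 0.0409 by limma), also below that criterion. Pld4, a nuclease of endosomes, rose from 35.4, 29.4 and 54.8 rescaled FPKM in Ctrl to 102.4, 93.2 and 101.4 in CIA (log2 fold change 1.36, SE 0.22, adjusted p = 0.0644 by limma with Benjamini-Hochberg adjustment). Plac8 rose from 85.6, 53.9 and 53.6 to 254.2, 156.0 and 179.8 (log2 fold change 1.62, SE 0.25, adjusted p = 0.0610, same test), and Ly6d rose by a log2 fold change of 0.74. Monocytes also express Pld4 and Plac8, and B cells express Ly6d and Pld4. Both Pld4 and Plac8 kept their calls with any 1 of the 6 libraries left out, while that of Ly6d was lost without Ctrl library 2 or CIA library 2, where its change was 0.61 and 0.54.

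Of 12 cDC1 genes, all tested, 4 were called in CIA against Ctrl, all higher, while Xcr1 was called lower. Naaa, a lysosomal amidase abundant in cDC1, rose from 9.57, 6.69 and 9.01 rescaled FPKM to 13.5, 17.4 and 20.0 (log2 fold change 1.00, SE 0.21, adjusted p = 0.0932 by limma with Benjamini-Hochberg adjustment). Nfil3, a factor needed for cDC1 to form and used by many other leukocytes, rose by 0.78, and Snx22 and Ifi205 rose by 1.45 and 1.37. Each of these was called at an unadjusted p under 0.05 only. Naaa kept its call with each library left out. Those of the other 3 were lost, for Nfil3 without Ctrl library 3, CIA library 2 or CIA library 3, for Snx22 without Ctrl library 1, CIA library 1 or CIA library 2, and for Ifi205 without CIA library 3 (p between 0.0513 and 0.116).

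Of 11 cDC2 genes 10 were tested and limma called 0 in CIA against Ctrl, with 2 at an unadjusted p under 0.05. Of 12 genes of growth factors and commitment 1 was called, Flt3l, which encodes the ligand of Flt3. Flt3l was 1.65, 2.09 and 3.37 rescaled FPKM in Ctrl, 4.01, 3.33 and 4.71 in CIA and 4.51, 3.99 and 3.95 in CIA+THz, and its change of 0.78 in CIA against Ctrl (unadjusted p = 0.0465 by limma) lost its call without any 1 of the 6 libraries but Ctrl library 3. Of 12 genes of maturation 10 were tested and 2 were called, both encoding costimulatory proteins. Cd80 fell by 1.29 (SE 0.32, adjusted p = 0.123 by limma with Benjamini-Hochberg adjustment), from 10.02, 5.55 and 6.28 rescaled FPKM in Ctrl to 2.17, 2.73 and 3.80 in CIA. Cd40 rose by 0.95, a call lost without Ctrl library 1, Ctrl library 2 or CIA library 1. B cells and monocytes also carry both proteins.

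Compared between CIA and Ctrl, the median log2 difference was 0.42 over the 9 tested dendritic cell genes, 0.38 over the plasmacytoid list, 0.39 over the cDC1 list, 0.30 over the cDC2 list, -0.20 over the growth factor and commitment list and 0.15 over the maturation list, against -0.01 over all genes tested. The monocyte list had a median of 0.81.

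Between CIA+THz and CIA, 3 of the 58 genes were called, all higher and all low in level. This is 5.17%, near the 4.54% of all genes called in this comparison, so that it is no result about the lists, and the values are given as a description. Tlr3, the receptor for double-stranded RNA that cDC1 use, was listed at 0, 0 and 0.111 rescaled FPKM in CIA and at 0.641, 0.440 and 0.187 in CIA+THz, so that all 3 CIA+THz libraries lay above the CIA libraries (unadjusted p = 0.0121, adjusted p = 0.265, limma with Benjamini-Hochberg adjustment). Gcsam was at 0.175, 0.169 and 0.0654 in CIA and 0.469, 0.415 and 0.332 in CIA+THz. Gfi1, a transcriptional repressor active in progenitors and granulocytes, was at 0.258, 0 and 0.270 in CIA and 1.05, 0.541 and 0.691 in CIA+THz. The call of Gcsam was lost without CIA library 3, CIA+THz library 1 or CIA+THz library 2 and that of Gfi1 without CIA+THz library 1 or CIA+THz library 3, while Tlr3 kept its call. Over the whole table, more genes were above 0 in each CIA+THz library (12449 to 12807) than in any CIA library (11801 to 12066). The part of this in the values of these 3 genes was not tested. The medians over the 6 lists in this comparison lay between -0.11 for cDC2 and 0.02 for growth factor and commitment, and that over all genes tested was 0.03. Of these lists 11 of the 58 genes were called for CIA+THz against Ctrl, 9 higher and 2 lower (Klra17 and Cd80), which is 19.0% against 7.88% of all genes. The lists were chosen with earlier results of these data known, so that this share is a description as well.

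**Figure D5:**
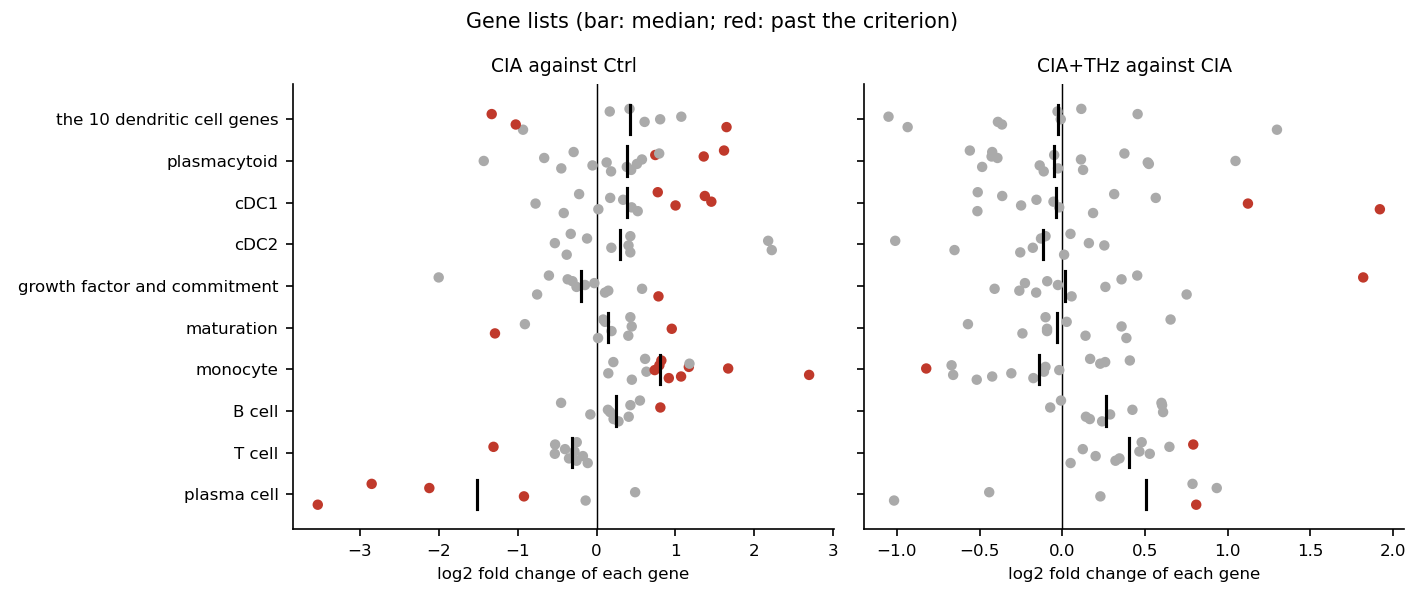
Log2 fold change of each tested gene (points) in the 10 dendritic cell genes, the 5 other dendritic cell lists and 4 lists of other blood cells, with the median of each list as a bar, in CIA against Ctrl and in CIA+THz against CIA. In CIA against Ctrl the median of the monocyte list is 0.81 and that of the 10 genes 0.42 (9 tested), and red points passed the criterion.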

How the data were processed

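RNA libraries of blood from 9 mice were sequenced paired-end on an Illumina HiSeq. FPKM for 20926 genes, given by symbol, are the values the authors deposited. The submitters' processing notes name bcl2fastq 2.0, HISAT2, StringTie, DESeq2 and mm10. The annotation, strand setting and filters are not given in the sources used here.

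Groups were taken from the labels. FPKM were divided by median-of-ratios factors over the 10312 genes above 0 in all 9 libraries. limma 3.58.1 (lmFit, eBayes with a trend) in R 4.3.3 was run on log2(rescaled FPKM + 0.1) for genes with a mean of at least 0.1, each pair of groups on its 6 libraries, with the criterion of the study (unadjusted p under 0.05, absolute log2 fold change above 0.67) and Benjamini-Hochberg adjustment. The scripts were tested on simulated data. Alternatives were a pseudocount of 1, unscaled FPKM, other filters, no trend, all groups in 1 fit, a replicate block, the adjusted p, ratios of means and leaving out each library. FPKM give no depth, and no whole-read steps were found in their low values, so no count test was run.

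Named were the 10 genes, the called genes of the other dendritic cell lists (up to 6 per list and comparison, in CIA against Ctrl and in CIA+THz against CIA), and the 3 genes most like Siglech, Clec9a and Cd209a. The genes around Xcr1, and Clec1b, Klra17 and Spib, were named after their values were seen. The 10 genes and all lists were chosen with earlier results of these data known. Of the marker lists, neutrophil and erythroid genes were also followed. In CIA against Ctrl 1 of 8 and 0 of 5 were called, the former lower, with 2 and 0 at an unadjusted p under 0.05. From CIA to CIA+THz all 8 neutrophil genes were negative, 6 at an unadjusted p under 0.05 by limma and 1 called. Of the 5 erythroid genes 0 were called there. In CIA+THz against Ctrl 3 of 8 and 3 of 5 were called lower (3.24% of all genes). The part of these cells in the values of the 10 genes was not tested. Coordinates are those of GENCODE on GRCm38 and promoters those of RefSeq. Distances between gene starts used the RefSeq start for Ccr9 and GENCODE starts for the other genes.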

Additional observations from a re-analysis of the deposited data

How the results depend on the processing

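FPKM without counts and 3 libraries per group limit these results, most of all for genes near 0. FPKM as deposited moved the median log2 difference of all genes in CIA+THz against CIA from 0.03 to 0.29, the calls over all genes from 363 higher and 198 lower to 1133 and 66, and the signs of the 9 dendritic cell genes, of which 0 were called under either scaling, from 3 positive and 6 negative to 5 and 4. In CIA+THz against Ctrl that median moved from 0.04 to 0.33, and the calls from 574 higher and 401 lower to 1600 and 120.

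Of the dendritic cell genes, a filter at a mean of 1 left 1 called for CIA against Ctrl, 1 for CIA+THz against Ctrl and 2 across the 3 groups, and the adjusted p left 0 in each. A pseudocount of 1 left 1 for CIA+THz against Ctrl. Leaving out 1 library gave 1 to 3 called for CIA against Ctrl (1 without Ctrl library 2 or CIA library 3), 0 to 1 for CIA+THz against CIA (1 without CIA+THz library 1, Flt3), 1 to 2 for CIA+THz against Ctrl (1 without CIA+THz library 1 or 2), and 1 to 4 across the 3 groups (1 without Ctrl library 2, 2 without CIA library 1 or 3 or CIA+THz library 3). For the other dendritic cell lists the adjusted p left 0 in each comparison of 2 groups. Across the 3 groups, the adjusted p of limma's F-test was under 0.05 for 3 of 15 plasmacytoid genes (Plac8, Pld4 and Klra17). It was also under 0.05 for 1 of 12 cDC1 genes (Naaa), for 0 of the cDC2, growth factor and maturation lists, and for 2.53% of all genes. For CIA+THz against CIA the other lists gave 7 with FPKM as deposited and 0 with a pseudocount of 1 or a mean of 1. For CIA+THz against Ctrl they gave 20 with FPKM as deposited and 7 with a pseudocount of 1. Leaving out 1 library gave 7 to 11 for CIA against Ctrl, 2 to 5 for CIA+THz against CIA (5 without CIA library 1 or 2) and 8 to 18 for CIA+THz against Ctrl (18 without Ctrl library 3). The filter and the adjustment change which genes can pass by construction, and for the rest the cause was not tested.

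Signs turned only for uncalled values. In CIA+THz against CIA, FPKM as deposited gave 0.26 for Cd209a and 0.25 for Tcf4. In CIA+THz against Ctrl, Siglech was -0.012 with a pseudocount of 1 and -0.16 as a ratio of means. The added ratio Xcr1/Clec9a in CIA+THz against CIA was 0.024 with a pseudocount of 0.1. Leaving out 1 library moved Batf3 between -0.19 and 1.93 for CIA against Ctrl, -1.93 and 0.22 for CIA+THz against CIA and -1.24 and 1.30 for CIA+THz against Ctrl. It moved Tcf4 between -0.024 and 0.32, -0.18 and 0.11, and -0.052 and 0.28 in the same comparisons. It moved Cd209a between -0.17 and 0.23 and Xcr1/Clec9a between -0.48 and 0.36 in CIA+THz against CIA, and Siglech between -0.86 and 1.09 in CIA+THz against Ctrl.

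The replicate numbers of the labels pair no animals, and same-numbered libraries did not deviate together (correlations between -0.05 and 0.03). With the replicate number as a block, 2 dendritic cell genes were called for CIA against Ctrl (Xcr1 was not, with an unadjusted p = 0.0522 from limma), 1 for CIA+THz against CIA (Siglech, log2 difference 1.30, unadjusted p = 0.0485), 2 for CIA+THz against Ctrl and 5 across the 3 groups. The other lists gave 11, 2 and 11.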
